A study of Mus musculus with 9 samples.

Results

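The circles described here are the 5 circular RNAs (circRNAs) of the Zfand4 locus on a mouse liver array. They were selected by position: each is a circRNA probe named by its coordinates that lies wholly in chromosome 6, 116214000 to 116281000 (build mm9). These are 5 of 14043 circRNA probes named by position and of 30534 circRNA probes in all. The locus itself was chosen on the measured values, with results of these data known, for circle probes that were lower while their partner probes were less so. The comparison behind that choice is not given, so all 3 group comparisons are treated as used. Levels and differences of the 5 circles are therefore given as a description, without a p-value.

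The mice were males of the inbred strain C57BL/6J, and their livers were taken at 20 weeks of age. Metformin mice ate a high fat diet (45% of energy from fat) for 17 weeks and received 3 mg of metformin per kg per day by gavage during the last 5 weeks. The drug is a biguanide used to lower blood glucose. High fat diet mice ate the same diet for 17 weeks and received saline by gavage during the last 5 weeks. The control group was kept on chow for the same 17 weeks. No gavage is listed for it, so diet and gavage cannot be told apart in a comparison with control. There were 3 arrays in each group. RNA of 4 mice was pooled for each array, so the spread between arrays is a spread between pools. RNA had been digested with RNase R, an exonuclease that removes linear RNA, before labelling. In whole liver, fewer cells of a type and less RNA per cell cannot be told apart.

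A circRNA forms when a splice donor is joined to an upstream splice acceptor, a reaction called back-splicing. Its closed ring has no free end for exonucleases, and circles of one gene can share exons and splice sites. Zfand4 (older symbol Anubl1) encodes a protein with a ubiquitin-like domain and an AN1-type zinc finger, and relatives with that zinc finger act with ubiquitin and the proteasome. RefSeq places the gene at chromosome 6, 116263594 to 116333423, in build GRCm38.p6, over 69830 bases. Those coordinates are of another build than the probe names and were not set against them. The host gene is thus taken from the window's name, and exons, introns and strand of the circles are not given here.

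The sequences of the array's probes are not used here, so the host promoter is the sequence shown, for a locus whose 5 circle probes all had a lower mean on the high fat diet than in control. RefSeq lists 2 start regions for Zfand4, both on the plus strand. The first, chr6:116263969-116264268 (GRCm38.p6), runs from 250 bases before to 50 bases after a transcript start. Capitals mark matches to the GC box, the motif GGGCGG, searched on both strands.
Zfand4 promoter: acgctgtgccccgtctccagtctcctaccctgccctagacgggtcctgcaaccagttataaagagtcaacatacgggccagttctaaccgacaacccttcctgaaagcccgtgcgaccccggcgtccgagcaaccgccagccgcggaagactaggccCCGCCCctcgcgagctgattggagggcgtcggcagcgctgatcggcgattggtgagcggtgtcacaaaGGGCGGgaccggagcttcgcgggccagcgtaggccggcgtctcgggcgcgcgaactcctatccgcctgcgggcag
It held 1 match on each strand, which do not overlap, and 35 CpG dinucleotides. The motif was in 35.7% of 32851 promoters of the same length. The other Zfand4 start region, at chr6:116266282-116266581, held 0 matches and 8 CpG dinucleotides. The arrays measured nothing at either region.

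Intensities are background-subtracted and detrended, and are not scaled between arrays. Levels are log2 of the intensity above the 75th percentile of the same array. Each circle probe has a partner probe with the same name and the ending _neg. The sources used here do not say what the partners were made to bind, and they are used as a paired reading that need not come from the circle. Every probe of the locus was a single spot, with no spot flagged or saturated. Between 77.0% and 84.3% of all probes stood well above background on 7 arrays, with 71.8% on high fat diet replicate 2 and 69.4% on metformin replicate 3. Slide and column were read from the parts of the array code in the file headers, and that reading was not checked. So read, all 3 control arrays and high fat diet replicate 1 lay in column 1 of the first slide. High fat diet replicates 2 and 3 and metformin replicates 1 and 2 lay in column 2, and metformin replicate 3 was on a second slide.

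Circles 1 to 4 form 1 overlapping stretch, and circle 5 lies apart. Circles 1 and 2 start at the same base, 116223591, and end at 116225043 and 116235939. Circles 3 and 4 end at the same base, 116238186, and start at 116234758 and 116235872. Circle 2 overlaps circle 3 by 1181 bases and circle 4 by 67 bases. Circle 5, from 116263863 to 116265660, begins 25677 bases after the end of circle 4 and overlaps none of the others. By their names the circles span 1452, 12348, 3428, 2314 and 1797 bases of genome. All 5 circle probes were well above background on all 9 arrays, so the filter on dim probes removed none of them.

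**Figure D1:**
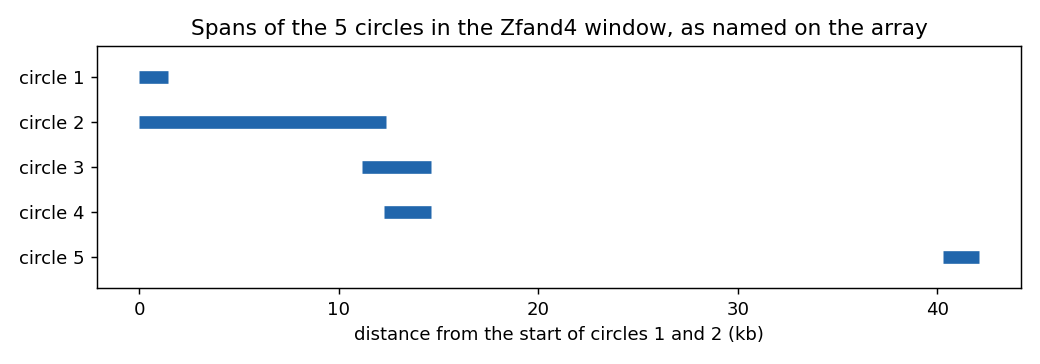
Genomic spans of the 5 circles, drawn as bars against the distance in kb from the shared start of circles 1 and 2. Circles 1 to 4 lie within overlapping stretches, while circle 5 stands 25677 bases beyond circle 4.

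The circles that share an end, circles 3 and 4, had the largest differences of the 5 between high fat diet and control. The circle 4 probe had intensities of 776, 646 and 549.9 in metformin pools, 556, 533 and 581 in high fat diet pools, and 1124, 697 and 915 in control pools. Every high fat diet pool was below every control pool, before and after scaling, and the metformin pools overlapped the control pools after scaling. Its level averaged -0.68 ± 0.267 on the high fat diet and 0.22 ± 0.286 in control (SD, n = 3 each). The log2 difference was -0.90 ± 0.193 (SE), which is 53.6% of the control level. Its partner stood at -3.50 ± 0.594 on the high fat diet and -3.11 ± 0.0879 in control, a difference of -0.39 ± 0.262. The partner's lower mean came from 1 array, high fat diet replicate 2 (-4.18), where it was not well above background. On the other high fat diet arrays it stood at -3.09 and -3.23, against -3.04, -3.21 and -3.08 in control.

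Circle 3, which contains the whole span of circle 4, had the same order of group means. Its intensities were 232, 172 and 135 in metformin pools, 130, 148 and 168 in high fat diet pools, and 260, 205 and 212 in control pools. The high fat diet pools again lay below all control pools. The level averaged -2.59 ± 0.226 on the high fat diet and -1.78 ± 0.0913 in control, a log2 difference of -0.82 ± 0.192, or 56.8% of control. The partner of circle 3 was lower on the high fat diet as well, at -3.73, -4.26 and -3.93, against -3.71, -3.41 and -3.62 in control. The -4.26 was on high fat diet replicate 2, where this partner too was not well above background. The partner values did not overlap, though the nearest were 0.02 apart, and the partner's difference was -0.39 ± 0.218.

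Circles 1 and 2, which share a start, had smaller differences between high fat diet and control than circles 3 and 4. Circle 1 had intensities of 136, 91.9 and 106 in metformin pools, 123, 117 and 96.0 in high fat diet pools, and 146, 157 and 122 in control pools. Before scaling, high fat diet replicate 1 and control replicate 3 overlapped, and after scaling they stood 0.08 apart. The log2 difference of circle 1 was -0.56 ± 0.198, which is 68.1% of control, and its partner differed by -0.23 ± 0.248 with overlapping pools.

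Circle 2 is the longest of the 5. Its probe had intensities of 110, 97.7 and 82.3 in metformin pools, 91.4, 105 and 95.6 in high fat diet pools, and 142, 136 and 106 in control pools. The level averaged -3.20 ± 0.127 on the high fat diet and -2.60 ± 0.151 in control, a difference of -0.60 ± 0.149 and 66.0% of control. On none of the 9 arrays was its partner well above background, with intensities of 4.68 to 16.3, so the partner gives no measured reading for this circle. The 2 highest partner intensities, 16.3 and 14.2, were on high fat diet replicate 2 and metformin replicate 3. These are also the arrays with the highest lowest intensity of any probe (12.7 and 11.05, against 3.84 to 7.60 on the other 7). The part of these floors in the ratios of circle 2 was not tested.

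Circle 5 lies apart from the others, and its partner shared its difference, so a fall specific to the circle probe is not what these values show for it. Its level averaged 0.98 ± 0.101 on the high fat diet and 1.43 ± 0.125 in control, a log2 difference of -0.44 ± 0.131 and 73.6% of control. Its intensities were 1715, 1778 and 1869 in metformin pools, 1600, 1920 and 1786 in high fat diet pools, and 2443, 1840 and 1964 in control pools. Before scaling, high fat diet and control overlapped, and they separated after scaling. The partner followed it on every array, with a log2 ratio of circle to partner between -0.01 and 0.19. The partner's difference was -0.47 ± 0.145, and that of the ratio 0.03 ± 0.0949.

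**Figure D2:**
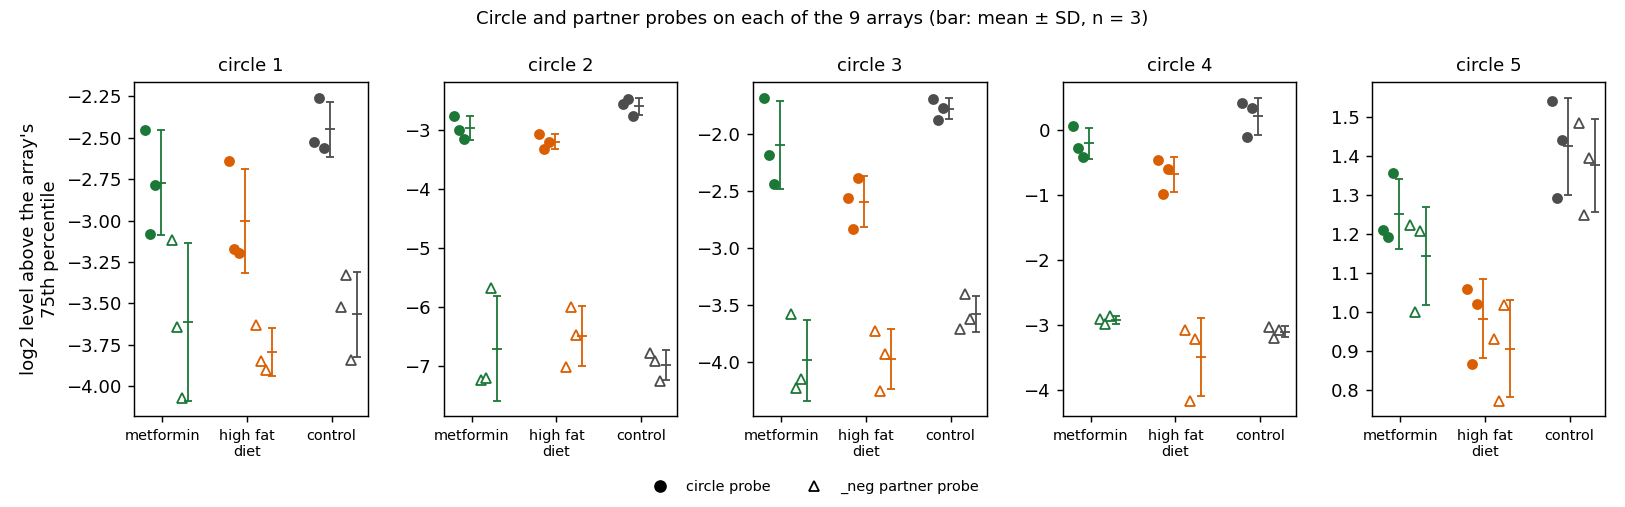
Log2 level above the array's 75th percentile (y axis, with its own range in each panel) of the circle probe (filled circles) and the _neg partner probe (open triangles) on each array, by group, with bars for the mean ± SD of 3 arrays. In all 5 panels the high fat diet circle probes lie below the control ones, and in the panel of circle 5 the partner shows the same step.

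Between high fat diet and control, all 5 circle probes were thus lower, by a median log2 difference of -0.60 (range -0.90 to -0.44). Over the 25777 circRNA probes tested in that comparison the median was -0.06, and 62.0% were lower. All 5 were lower on every high fat diet array than on every control array, as were 9% of all tested circRNA probes with a value on all 6 arrays. Of their partners, those of circles 3 and 5 were lower on every array, as were 8.86% of partner probes. Since the locus was chosen with these values known, nothing is read from those counts. By limma with Benjamini-Hochberg adjustment over the whole table, 0 of the 5 passed an adjusted p of 0.05, and 0% of all circRNA probes did. At an unadjusted p under 0.05 there were 1868 circRNA probes in the table. The mean over the 5 circle probes was -1.54, -1.89 and -1.67 on the high fat diet arrays, against -0.96, -1.08 and -1.06 in control.

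The difference of that mean was -0.66, and -0.57 without high fat diet replicate 2, the array of low detection. Within column 1 of the first slide, which leaves high fat diet replicate 1 against the 3 control arrays, it was -0.50. There circles 3 and 4 differed by -0.78 and -0.68, circles 2 and 5 by -0.47 and -0.37, and circle 1 by -0.19. Those values rest on 1 high fat diet pool. With normexp background correction in place of that of the processed intensities, the mean difference was -0.48.

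In metformin pools all 5 circle probes had a mean level, after scaling, between the other groups. This comparison shares its high fat diet arrays with the one above, so the values stand side by side and are no second reading. Circle 3 averaged -2.10 ± 0.385 with metformin and -2.59 ± 0.226 on the high fat diet alone, a log2 difference of 0.50 ± 0.192. Circle 4 averaged -0.20 ± 0.244 with metformin and -0.68 ± 0.267 on the diet alone, a difference of 0.48 ± 0.193. The differences were 0.27 ± 0.131 for circle 5, 0.23 ± 0.198 for circle 1 and 0.23 ± 0.149 for circle 2. Without metformin replicate 1 they were 0.07 for circle 1, 0.13 for circle 2 and 0.29 for circle 3. Leaving out any 1 array put circle 1 between 0.07 and 0.41. After scaling, only circles 4 and 5 had every metformin array above every high fat diet array, and for circle 4 the gap was 0.06. Before scaling both overlapped, and circle 5 had mean intensities of 1788 with metformin and 1769 on the high fat diet. The log2 75th percentiles subtracted were 9.53, 9.60 and 9.51 on metformin arrays and 9.59, 10.04 and 9.78 on high fat diet arrays. A higher percentile lowers every level of its array. Of all circRNA probes, 5.07% were higher on every array in this comparison. The partner of circle 4 was higher on every metformin array too, as were 7.03% of partner probes. By limma 0 of the 5 passed an adjusted p of 0.05, with 0% of 25828 in the table (1007 at an unadjusted p under 0.05). The median over the 5 was 0.27, against 0.03 over all tested.

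Metformin pools also differed among themselves. Replicate 1 had the highest level of the 3 for circles 1 to 4, and its mean over the 5 circle probes, -1.12, was close to control replicate 2 at -1.08. Replicates 2 and 3 stood at -1.47 and -1.48. Among the arrays of slide column 2 (metformin replicates 1 and 2, high fat diet replicates 2 and 3), the mean over the 5 circles was higher with metformin by 0.49.

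Against control, metformin pools were lower for all 5 circles in the mean, as they were for 56.7% of the circRNA probes tested. The median over all tested was -0.03. The log2 differences were -0.42 ± 0.193 for circle 4, -0.37 ± 0.149 for circle 2, -0.32 ± 0.198 for circle 1, -0.32 ± 0.192 for circle 3 and -0.17 ± 0.131 for circle 5. Leaving out 1 array put circle 1 between -0.48 (without metformin replicate 1) and -0.17 (without metformin replicate 2). It put circle 3 between -0.53 (without metformin replicate 1) and -0.15 (without metformin replicate 3), and circle 5 between -0.24 and -0.11. None of the 5 had every metformin array below every control array, while 6.88% of all circRNA probes did. Among the partners, that of circle 5 was lower on every metformin array (5.77% of partner probes were) and that of circle 4 was higher on every one (7.36% were). By limma 0 of the 5 passed an adjusted p of 0.05 (0% of 25763, with 1307 at an unadjusted p under 0.05). The mean difference over the 5 was -0.32 as fitted. With slide and slide column as a covariate it was -0.013, and circles 1 and 4 changed sign, to 0.23 and 0.01. No column of a slide held both metformin and control arrays. After scaling and without the slide covariate, the order of the group means was thus control, metformin, high fat diet for every circle. In those levels metformin overlapped control in all 5 and the high fat diet in circles 1, 2 and 3. Before scaling, circles 1 and 2 had mean intensities of 111.3 and 96.7 with metformin, against 111.9 and 97.3 on the high fat diet. For both, metformin was thus not above the high fat diet before scaling.

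**Figure D3:**
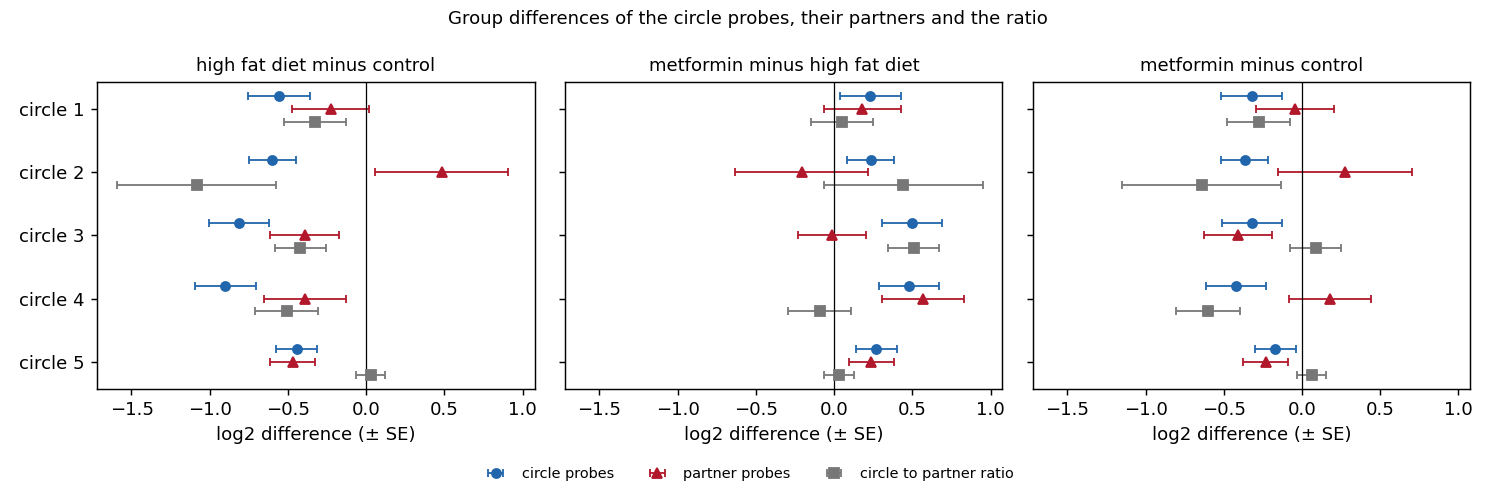
Log2 differences with SE (x axis) of circle probes, partner probes and the circle to partner ratio, for each circle in the 3 comparisons. Circle probes are below 0 for all 5 in high fat diet minus control, where the ratio of circle 5 is 0.03, and above 0 for all 5 in metformin minus high fat diet.

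The ratio of circle to partner asks how much of a difference the partner did not share. Between high fat diet and control it differed by -0.51 ± 0.204 for circle 4, -0.42 ± 0.163 for circle 3, -0.33 ± 0.200 for circle 1 and 0.03 ± 0.0949 for circle 5. For circle 2 it differed by -1.08 ± 0.507, a value that rests on partner intensities not above background. Circles 1 and 2 had a ratio below all control arrays on every high fat diet array, and 6.18% of all circRNA probes did. For circle 1 the nearest values of the groups were 0.01 apart, and its partner was not well above background on high fat diet replicate 2. For circle 2 no partner value was above background, so its place in this count rests on no measured partner. For circle 4 the ratio was 2.62, 3.20 and 2.63 on the high fat diet, against 3.46, 3.10 and 3.42 in control. High fat diet replicate 2, where the partner was not well above background, is the array that overlapped control. For circle 3 it was 1.17, 1.42 and 1.54 on the high fat diet, against 2.02, 1.54 and 1.85 in control, so the groups met at 1.54. By limma, adjusted over all ratios, 0 of 5 passed (0% of 25706, with 1298 at an unadjusted p under 0.05).

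Averaged over the 5 circles, the ratio was 1.77, 1.62 and 1.63 on the high fat diet, against 2.15, 2.04 and 2.22 in control. The difference of the means was -0.46. It was -0.31 without circle 2, whose partner gave no reading, and -0.59 without circle 5. With metformin the mean ratio over the 5 was 2.01, 1.95 and 1.63, and the low value, on replicate 3, came from circle 2. Without circle 2 the mean ratio was 1.38, 1.38 and 1.41 with metformin, 1.23, 1.35 and 1.22 on the high fat diet, and 1.63, 1.44 and 1.65 in control. These means of 4 circles did not overlap between the 3 groups, with the nearest metformin and control values at 1.41 and 1.44. Leaving out circle 2 was chosen after seeing the data, and no share over all probes was computed for such means. Nothing is read from that separation. Metformin minus high fat diet was 0.19 over the 5 circles and 0.13 without circle 2. Without metformin replicate 3 it was 0.30 over the 5 and 0.12 without circle 2. Some of the partners behind these means were not well above background, those of circles 1, 3 and 4 on high fat diet replicate 2 and of circles 1 and 3 on metformin replicate 3. For circle 3 the ratio was higher on every metformin array (1.90, 2.05 and 1.72) than on every high fat diet array, a difference of 0.51 ± 0.163. That held for 2.92% of all circRNA probes. The values 1.72 on metformin replicate 3 and 1.42 on high fat diet replicate 2 rest on a partner not well above background. For circle 4 the ratio differed by -0.09 ± 0.204. Its partner stood at -2.92, -2.99 and -2.87 with metformin, against -3.09, -4.18 and -3.23 on the high fat diet. Against control the ratio of circle 4 was lower on every metformin array, by -0.60 ± 0.204, as it was for 8.19% of all circRNA probes.

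**Figure D4:**
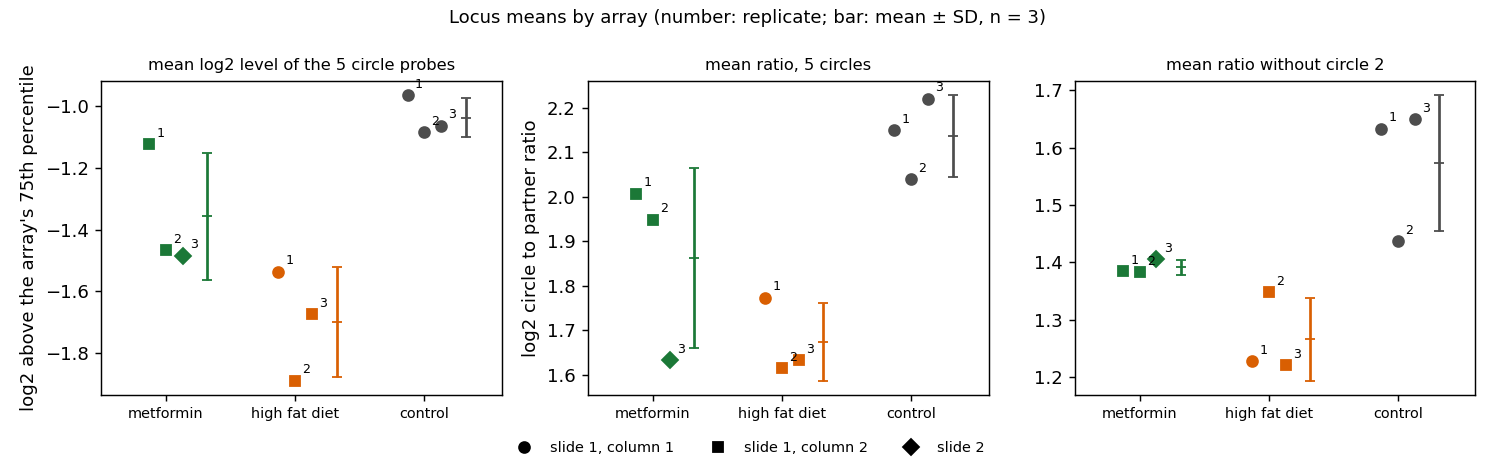
Mean log2 level of the 5 circle probes (left), mean log2 circle to partner ratio of the 5 circles (middle) and the same without circle 2 (right) on each array, with the replicate number beside each point, its shape for the position on the slides, and bars for the mean ± SD of 3 arrays. The 3 high fat diet arrays lie below the 3 control arrays in all panels, and metformin replicate 3, at 1.63 in the middle panel, stands at 1.41 and above all high fat diet arrays in the right one. Leaving out circle 2 was chosen after seeing the data.

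The authors' deposited log2 values per circRNA follow the intensity of the circle probe minus that of its partner. In the authors' deposited table circle 4 stood at 8.89, 8.50 and 8.86 on the high fat diet, against 9.96, 9.35 and 9.76 in control. Circle 3 stood there at 6.24, 6.07 and 6.69 on the high fat diet, against 7.56, 7.17 and 7.34 in control. Circle 2 had 6.49, 6.01 and 6.34 on the high fat diet and 7.01, 7.12 and 6.75 in control in the authors' deposited table. For circle 1 the authors' deposited values were 6.00, 4.99 and 5.11 on the high fat diet and 6.10, 6.47 and 6.25 in control. These 4 circles were lower on every high fat diet array than on every control array there. The deposited values follow the same circle and partner intensities, so they are no second reading. The share over all circRNAs was not computed, and nothing is read from that count. Circle 5 was not lower on every array: the authors' deposited table gives 7.15, 6.51 and 2.59 on the high fat diet, against 6.45, 5.86 and 6.03 in control. With metformin, circle 5 had -3.32, 7.86 and 7.77 in the authors' deposited table, the first being the table's floor. The probe and partner of circle 5 were nearly equal in intensity, 1715 and 1731 on the array at the floor, so their difference was small beside either of them.

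The circRNA probes named by position nearest to the window on each side were compared in the same way. The nearest before it, from 116179241 to 116198176, ends 25415 bases from circle 1 and differed by -0.34 ± 0.158 between high fat diet and control, lower on every array. The nearest after it, from 116326711 to 116326881, lies 61051 bases beyond circle 5 and differed by -0.12 ± 0.157, from 3 high fat diet and 2 control arrays after 1 flagged control spot was left out. Of the 10 nearest circRNA probes named by position, 5 on each side, 9 were tested. Between high fat diet and control 5 of these were lower and 4 higher, with a median of -0.03 and a range of -0.41 to 0.14. The 5 lower ones lay 25415 to 139116 bases from circle 1 or circle 5. The 4 higher ones lay 212425 bases before circle 1 (0.13) and 1803968, 1808670 and 2073114 bases beyond circle 5 (0.03, 0.14 and 0.03). The lowest difference, -0.41 ± 0.196 for the circle from 116126891 to 116127658, was close to the -0.44 ± 0.131 of circle 5. As the window was chosen on its values, nothing is read from its contrast with the neighbours. Between metformin and control 8 of the 9 were lower, with a median of -0.23 against -0.32 for the 5 circles of the window. Over all circRNA probes tested in that comparison 56.7% were lower, with a median of -0.03.

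The circRNAs most like the locus were sought among 24541 tested circRNA probes outside the window, by the Pearson correlation over the 9 arrays with the mean level of the 5 circle probes. These are descriptions over arrays that share their scaling and their groups. A circle on chromosome 13, from 9720019 to 9735021, came first at 0.971, with a high fat diet minus control difference of -0.44 ± 0.129. It was followed by mmu_circ_0013666 at 0.961 (-0.63 ± 0.171) and by a circle on chromosome 19, from 43579012 to 43582483, at 0.958 (-0.84 ± 0.132). A circle on chromosome 4, from 94302465 to 94329357, and mmu_circ_0006343 were both at 0.957, with differences of -0.50 ± 0.154 and -0.30 ± 0.119. Their partners differed in kind. The high fat diet minus control difference in the log2 ratio to the partner was 0.00 for the chromosome 19 circle, and -0.37 for the chromosome 13 circle. It was -0.71 for mmu_circ_0006343, -0.23 for the chromosome 4 circle and -0.14 for mmu_circ_0013666.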

How the data were processed

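Liver RNA (15 mg of tissue, 5 µg of RNA digested with RNase R for 30 minutes, per the labels' protocols) was hybridised to 9 one-colour Agilent-format arrays. Per the file headers, the deposited processed intensity is background-subtracted and detrended by Agilent Feature Extraction 11.5.1.1 on a grid built on mm9, and is not scaled between arrays. Version 10.7 is the one in the submitters' processing notes. The deposited log2 values of the authors had a median of 6.51 and a floor of -3.32 on every array; the sources used here do not say how they were made, and their order above the floor followed circle minus partner intensity (Spearman correlation 1).

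Processed intensity was brought to log2, spots flagged as outliers were left out, spots of a probe were averaged, and each array's 75th percentile over 61079 probes was subtracted. A circRNA probe was tested if well above background on all 3 arrays of a group (25864 probes, 84.7%). One limma model (version 3.58.1, R 4.3.3, eBayes without trend) held all 3 groups, with Benjamini-Hochberg adjustment over the whole table and a threshold of 0.05. SEs of single circles come from that fit. The code was tested on simulated data. Alternatives were normexp with an offset of 50 on the median signals (mean signals are not in the files), quantile normalization, other filters, the deposited values, slide position, a replicate block and leaving out arrays.

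The members and lists were chosen with earlier results of these data known. Named were all members, their partners, the 10 nearest circRNA probes and the 5 most correlated ones. No table at hand pairs probes with host genes in mm9, so the gene family, the ubiquitin genes and the marker lists of liver cell types were not tested, and the tissue label was not checked. The labels do not say that replicate numbers pair pools across groups. Deviations from group means correlated at -0.14 to 0.19 between arrays of the same number, and at -0.26 to 0.28 between arrays of different numbers. The number of arrays limits the precision.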

Additional observations from a re-analysis of the deposited data

How the results depend on the processing

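None of the 5 circles passed an adjusted p of 0.05 (limma) in any of the 17, 17 and 16 alternatives run for high fat diet minus control, metformin minus high fat diet and metformin minus control. For the whole table the count of circRNA probes called, 0 as reported, became 19, 0 and 6 with normexp and 75th percentile scaling. It became 7, 0 and 3 with normexp and quantile normalization, and again 7, 0 and 3 with trend and robust fitting. The authors' deposited values gave 15, 14 and 23, and slide and slide column as a covariate gave 2, 2 and 2. For high fat diet minus control it was 1 with probes well above background on all 9 arrays, and 4 within slide column 1. With the replicate block it was 4 for that comparison and 0 for the others, and the block left the members' differences as they were. Leaving out 1 array gave 0 to 0 for both comparisons with control and 0 to 1 for metformin minus high fat diet, the 1 without high fat diet replicate 1.

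The mean difference of the 5 circle probes kept its direction throughout. For high fat diet minus control (-0.66) it was -0.48 with normexp and 75th percentile scaling, -0.45 with quantile normalization and -0.85 with the deposited values. With the slide covariate it was -0.50, the same estimate as within slide column 1, and both rest on high fat diet replicate 1 alone. Leaving out 1 array gave -0.74 to -0.57. For metformin minus high fat diet (0.34) it was 0.12 with the deposited values, and 0.22 to 0.42 leaving out 1 array. For metformin minus control (-0.32) it was -0.73 with the deposited values, -0.013 with the slide covariate, and -0.44 to -0.26 leaving out 1 array. The deposited values follow circle minus partner intensity, so they are another measure than the circle probe. In them circle 5, with 1 metformin array at the floor, differed by -0.70, -1.31 and -2.01, in the order of comparisons above. The other circles differed by -1.02 to -0.68, 0.31 to 0.81 and -0.60 to -0.21.

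The mean difference of the ratio kept its direction too. For high fat diet minus control (-0.46) it was -0.29 with normexp and 75th percentile scaling, -0.31 with quantile normalization, -0.31 without circle 2 (chosen after seeing the data, as was leaving out circle 5), and -0.51 to -0.42 leaving out 1 array. For metformin minus high fat diet (0.19) it was 0.35 with the slide covariate, the same estimate as within slide column 2. Leaving out 1 array gave 0.12 to 0.30. For metformin minus control (-0.27) it was -0.12 with quantile normalization, -0.0093 with the slide covariate, and -0.35 to -0.16 leaving out 1 array. The causes of these shifts were not tested. Of 70 alternatives for single circles in high fat diet minus control, 0 changed sign. In metformin minus high fat diet 1 of 70 did, circle 5 with the deposited values (-1.31), and in metformin minus control 2 of 65 did, circles 1 and 4 with the slide covariate. These alternatives share arrays and are not separate checks. The replicate block returned the values as fitted, and the slide covariate gave those of a single slide column where one was run. After scaling no circle overlapped between high fat diet and control, so leaving out 1 array could not change a sign there.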
